A study of Mus musculus with 2 samples.

Results

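The cells examined here were pre CFU-E, early erythroid progenitors of mouse bone marrow, and the genes were 8 membrane proteins that move drugs and nucleosides into or out of cells. They comprise the efflux pumps Abcb1a, Abcb1b, Abcg2, Abcc1, Abcc4 and Abcc5 and the nucleoside transporters Slc29a1 and Slc29a2. The genes were chosen by name from their known function, and every probe whose RefSeq accession belongs to one of them was used, which gave 11 probes with 20 spots for all 8 genes, among 20660 genes that could be named. The cells came from the femora and tibiae of C57BL/6 mice, either wild type (WT) or ESAM-KO, and were sorted as c-Kit+ Sca1- cells that were Lin- and FCgRII/III-/Lo, CD41Lo, and positive for CD150 and for endoglin. ESAM-KO mice lack the endothelial cell-selective adhesion molecule, and the deletion is not limited to blood cells. All mice, adults of both genotypes, had received a single injection of 120 mg/kg of 5-fluorouracil (5-FU) 8 days before, and no untreated mice were on the arrays, so the values compare the genotypes after the drug and not the drug with its absence. Cells of several mice of a genotype were pooled, and their RNA was amplified and hybridised to 1 Agilent array per genotype. Neither genotype has a replicate array, so the differences below carry no test and no p-value. A difference of genotype cannot be told apart from a difference between pools, sorts or labelling reactions.

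Efflux pumps of the ABC family are membrane proteins that bind and split ATP to drive their cargo out of the cell. Abcb1a and Abcb1b are the pair of rodent genes for P-glycoprotein, which expels many hydrophobic drugs, and Abcg2 expels drugs and porphyrins and is known for excluding dye from blood stem cells. Abcc1 exports glutathione conjugates, while Abcc4 and Abcc5 export cyclic nucleotides and nucleotide analogues, and for Abcc5 these include the monophosphate made from 5-FU. Slc29a1 and Slc29a2 use no ATP and let nucleosides pass in either direction along their gradient, and Slc29a2 also carries nucleobases, the class of molecule to which 5-FU belongs. Red cells and their precursors are known for nucleoside transport through Slc29a1.

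The files hold no probe sequences. The stretches of 250 bases before the annotated transcription start are shown for the 2 genes that differed by more than 2-fold, Abcc4 and Abcc5, and for the neighbouring P-glycoprotein genes Abcb1a and Abcb1b, whose ratios had opposite signs. They are from RefSeq, build GRCm38.p6, and run 5′ to 3′ along the gene, ending 1 base before its start. RefSeq windows were found for 7 of the 8 genes, and of the 2 starts listed for Abcc4 the one farther upstream is shown. Capitals mark the letters CCAAT or GGGCGG on either strand, the boxes bound by the factor NF-Y and by Sp family factors.
Abcc4, chr14:118706220-118706469, strand -: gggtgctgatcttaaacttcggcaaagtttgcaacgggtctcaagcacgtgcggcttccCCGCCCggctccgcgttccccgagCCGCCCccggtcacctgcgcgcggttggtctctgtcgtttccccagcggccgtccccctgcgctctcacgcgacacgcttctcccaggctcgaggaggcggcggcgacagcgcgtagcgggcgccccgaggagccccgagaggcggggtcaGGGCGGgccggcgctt
Abcc5, chr16:20426395-20426644, strand -: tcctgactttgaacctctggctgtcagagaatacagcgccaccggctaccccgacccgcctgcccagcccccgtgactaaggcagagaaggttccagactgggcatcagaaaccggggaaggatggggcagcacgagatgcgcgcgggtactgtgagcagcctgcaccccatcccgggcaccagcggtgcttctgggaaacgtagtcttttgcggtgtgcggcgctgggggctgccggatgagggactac
Abcb1a, chr5:8566841-8567090, strand +: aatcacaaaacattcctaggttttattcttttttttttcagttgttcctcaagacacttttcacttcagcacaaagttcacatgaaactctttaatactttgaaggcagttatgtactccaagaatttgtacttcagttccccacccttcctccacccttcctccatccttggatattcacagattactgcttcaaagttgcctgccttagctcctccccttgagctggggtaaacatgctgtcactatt
Abcb1b, chr5:8797897-8798146, strand +: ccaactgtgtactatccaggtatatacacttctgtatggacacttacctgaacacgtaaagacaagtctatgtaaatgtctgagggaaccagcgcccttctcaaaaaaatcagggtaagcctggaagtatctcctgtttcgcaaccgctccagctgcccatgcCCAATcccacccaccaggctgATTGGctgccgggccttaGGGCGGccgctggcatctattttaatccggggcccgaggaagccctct
A further 6 motifs were searched on both strands: AGATAA for GATA factors, with T also allowed first and G last, TATAAA for the TATA box, TGACNNNGC for the antioxidant response core, GCGTG for the dioxin response core, ACGTG for the hypoxia response core and CACGTG for the E-box, which contains ACGTG and so is counted under both. The window of Abcc4 held 3 GGGCGG boxes, 1 TGACNNNGC, 2 GCGTG, 2 ACGTG on opposite strands and 1 CACGTG that these share, and 72.0% of its bases were G or C. The window of Abcc5 held none of the 8 motifs, and 64.0% of its bases were G or C, against a median of 52.4% over the 32851 windows of the same length in the table. The windows of the P-glycoprotein pair differed, as that of Abcb1b held 2 CCAAT, 1 GGGCGG and 1 ACGTG, whereas that of Abcb1a held none of the 8. Of their bases 52.8% and 40.4% were G or C in that order. Each of the pair had 1 listed start, and whether these cells use it was not examined, so the windows may not be the promoters in use. The second start of Abcc4 had 1 GATA motif and 1 TGACNNNGC, and no GATA motif was in the 4 windows shown. Of all windows, 26.5% held a GATA motif, 33.8% CCAAT, 32.7% GGGCGG, 12.4% TATAAA, 10.2% TGACNNNGC, 28.2% GCGTG, 16.6% ACGTG and 6.02% CACGTG.

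Values are the Cy3 intensity of a spot after the scanner software had removed its background. A log2 ratio is ESAM-KO minus WT after each array was divided by its 75th percentile, which was 201.4 for WT and 251.1 for ESAM-KO, and a gene is represented by its brightest probe. This scaling lowers every log2 ratio by 0.32. The error given with a ratio is that of the scanner software for the signals of the spots on the 2 arrays, so it leaves out the spread between mice. For bright probes it was nearly constant at 0.20, as for Slc29a1 and the brightest Abcc5 probe, and it is not a spread measured between spots. The share of spots well above background was 57.3% for WT and 61.1% for ESAM-KO, and 0 spots were saturated. The targeted gene, Esam, read 27.4 in WT and 20.6 in ESAM-KO at its single probe, and the log2 ratio was -0.73 with an error of 0.31, within 2-fold, and the position of the probe relative to the deletion was not examined, so this is a weak check of the genotypes. All 7 erythroid and sort markers examined (Gata1, Epor, Klf1, Tfrc, Kit, Eng and Slamf1) were well above background on both arrays, with log2 ratios between -0.80 and 0.89. Slamf1, the gene of CD150, was the dimmest of them, at 17.8 in WT and 23.0 in ESAM-KO. The lowest signals that passed were 12.6 and 13.2 in that order, so for Slamf1 this check is weak. Ly6a, the gene of the Sca1 antigen that the sort selects against, read 61.1 in WT and was not well above background in ESAM-KO.

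Abcc4 and Abcc5 were more than 2-fold lower in ESAM-KO, and none of the 8 genes was higher by that much. In ESAM-KO all 8 genes were well above background, and in WT 7 were, the exception being Slc29a2. Of all 20660 named genes, 13675 were so in ESAM-KO and 13176 in WT at their brightest probe. By the 2-fold criterion, 15.4% of the 14136 genes with a ratio differed in either direction, 8.43% being lower and 6.99% higher. Of the genes past 2-fold 54.7% were thus lower, a share that was 28.8% without scaling and 66.8% with arrays set to their medians. The 2 of 8 genes are 25% and are read against that share, from which so short a list cannot be set apart. The median log2 ratio of the 8 genes was -0.0071, and that of all genes was 0.00056. The 4 genes above 0 (Abcb1a, Abcg2, Slc29a1 and Slc29a2) and the 4 below it (Abcb1b, Abcc1, Abcc4 and Abcc5) did not follow the division into pumps and nucleoside transporters, as pumps were on both sides. The plot of intensities shows each probe on both arrays, and the plot of ratios gives the same probes with their errors.

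**Figure D1:**
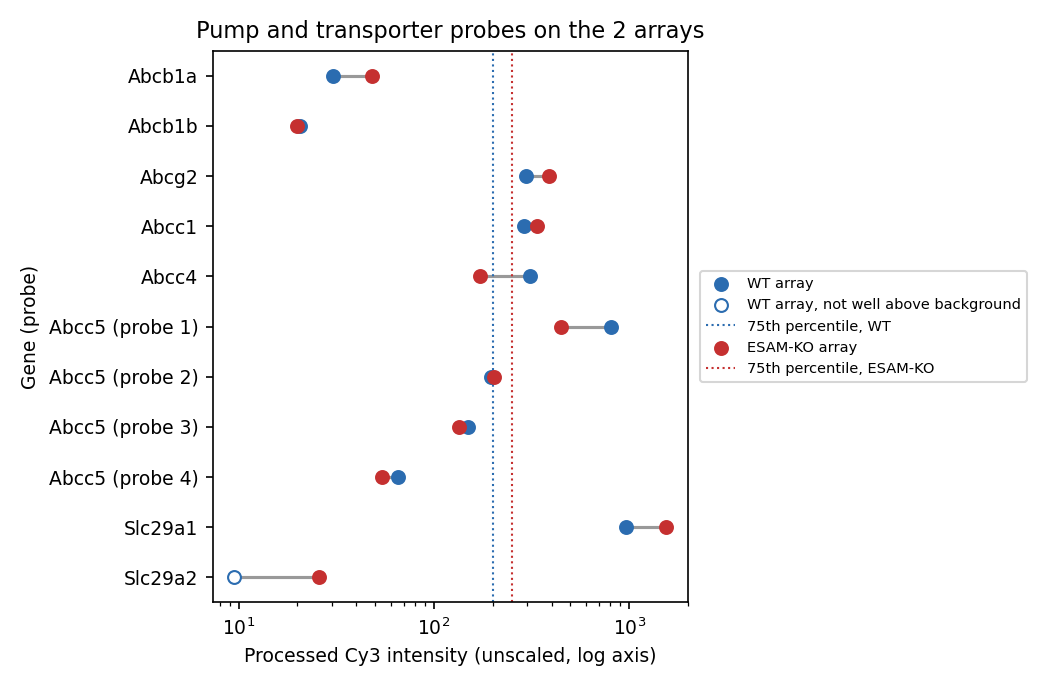
Processed Cy3 intensity, unscaled and on a log axis, of each of the 11 probes, 1 row per probe, for WT (blue) and ESAM-KO (red). Dotted lines are the 75th percentiles, 201.4 for WT and 251.1 for ESAM-KO, and the open circle is the WT signal of Slc29a2, 9.52, which was not well above background. The widest gaps toward lower ESAM-KO signal are those of Abcc4 and of the brightest Abcc5 probe.

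Of the pumps for nucleotides, Abcc4 (NM_001033336, chromosome 14) read 308.6 in WT and 172.0 in ESAM-KO at its single probe. It was the gene with the second lowest ratio of the 8, 2.24-fold lower in ESAM-KO after scaling, at -1.16 on the log2 scale with an error of 0.21. Of all genes with a ratio, 6.58% had a lower one. Its signal lay in the second dimmest quartile of the genes above background on both arrays, in which 19.1% of the genes were past 2-fold. Its log2 ratio passed the 2-fold criterion by less than the error, and without scaling it was -0.84, within 2-fold. Several small RNA genes and gene models, Mir6391 among them, overlap Abcc4 in the annotation, and whether the labelling kept the strand is not given in the sources used here.

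Abcc5 (chromosome 16) had 4 probes, all well above background on both arrays. The brightest, named for NM_176839, read 808.0 in WT and 446.2 in ESAM-KO. This was 2.26-fold lower (log2 ratio -1.18, error 0.20), and it too passed the criterion by less than that error. The genes of its signal quartile, the second brightest, were past 2-fold in 10.8% of cases. The other 3 probes were within 2-fold. The probe printed as 10 spots, named for NM_013790, read between 184.3 and 214.5 with a median of 191.3 in WT, and between 182.6 and 219.4 with a median of 204.2 in ESAM-KO. The intensities of its spots overlapped almost entirely between the arrays, and its log2 ratio was -0.27, with an SD of 0.10 between the spots, which measures the array surface and not the cells. The remaining probes of each accession read 149.3 and 133.7 (NM_176839) and 65.8 and 54.1 (NM_013790), with log2 ratios of -0.48 and -0.60 in that order. All 4 probes were below 0 after scaling, but their size differed, the brightest lying 0.91 below the probe with 10 spots. Without scaling, the probe with 10 spots was at 0.05, and 7 of its 10 spots were higher in ESAM-KO. The mean of the 4 probes was -0.63, so that the more than 2-fold difference of Abcc5 rests on 1 spot per array.

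**Figure D2:**
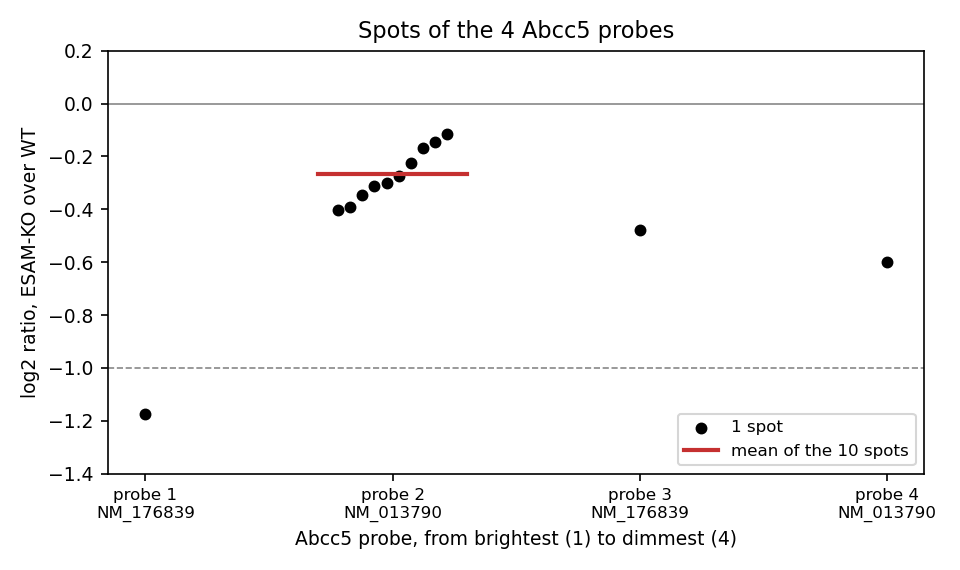
Log2 ratio of ESAM-KO over WT for the spots of the 4 Abcc5 probes, from brightest to dimmest, with each point 1 spot, the red line the mean of the probe with 10 spots and the dashed line a 2-fold difference. The spots of that probe lie between -0.40 and -0.11, and of the 4 probes the brightest, at -1.18, is below the dashed line.

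The P-glycoprotein genes lie next to each other on chromosome 5, and each had 1 probe near the background. Abcb1a (NM_011076) had intensities of 30.4 (WT) and 48.4 (ESAM-KO), a ratio of 0.35 on the log2 scale (error 0.27). Abcb1b (NM_011075) had intensities of 20.7 (WT) and 19.8 (ESAM-KO), a ratio of -0.38 on the log2 scale (error 0.38). The lowest signals well above background were 12.6 for WT and 13.2 for ESAM-KO, so both genes were detected at the lower end of the range. In that dimmest quartile of signal 17.9% of the genes were past 2-fold, and neither Abcb1a nor Abcb1b was. The opposite signs are given as values of these 2 arrays. They are related copies, and whether the probe of one also binds the cDNA of the other was not examined. In the annotation Abcb1a overlaps Rundc3b and Abcb1b overlaps Gm5106.

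The stem cell and porphyrin pump Abcg2 (NM_011920, chromosome 6) read 295.8 in WT and 388.4 in ESAM-KO, and the glutathione conjugate pump Abcc1 (NM_008576, chromosome 16) read 289.1 and 339.0. Both unscaled intensities were higher in ESAM-KO by about as much as the array as a whole. After scaling, the log2 ratio of Abcg2 was 0.07 with an error of 0.20, and that of Abcc1 was -0.09 with an error of 0.21. These were the ratios closest to 0 among the 8 genes, each smaller than its own error. Their signs depended on the scaling, as that of Abcg2 was -0.06 when arrays were set to their medians and that of Abcc1 was 0.23 without scaling.

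**Figure D3:**
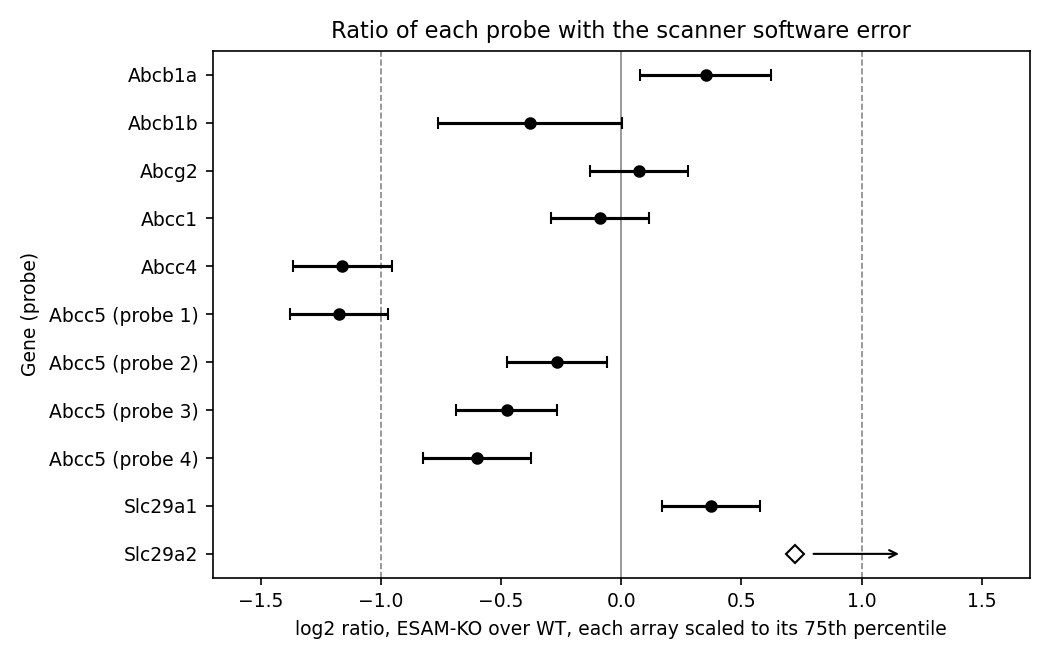
Log2 ratio of ESAM-KO over WT for each of the 11 probes after scaling to the 75th percentile, with bars for the error of the scanner software and dashed lines at a 2-fold difference. The open diamond with an arrow is the lower bound for Slc29a2, and Abcc4 and the brightest Abcc5 probe are the points beyond a dashed line.

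Of the nucleoside transporters, Slc29a1 (NM_001199113, chromosome 17) had 1 probe, in the brightest quartile of genes. It read 960.8 in WT and 1551 in ESAM-KO, which after scaling was 1.29-fold higher (log2 ratio 0.37, error 0.20). In that quartile 2.63% of the genes were past 2-fold, and 74.9% of all genes with a ratio had a lower one than Slc29a1. Slc29a2 (NM_007854, chromosome 19) read 9.52 in WT, where it was not well above background, and 25.9 in ESAM-KO, where it was. The ratio is therefore a bound, the ESAM-KO signal against the lowest WT signal well above background, by which Slc29a2 in ESAM-KO was at least 1.65-fold higher. The bound was at least 2-fold without scaling, with a log2 value of 1.04, and Slc29a2 was then the single gene of the 8 past the criterion. Slc29a1 was on the side of higher signal in ESAM-KO under each of the 12 alternatives that gave ratios. Other filters and summaries of probes cannot change a gene with 1 bright probe, so of these the scalings and normexp test its sign. The sign of a bound is fixed by which array passes, so the alternatives that gave Slc29a2 a bound do not test its direction. Without the detection filter, which compares its own signals, the log2 ratio of Slc29a2 was 1.12. Neither transporter was past 2-fold as scaled and filtered here.

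**Figure D4:**
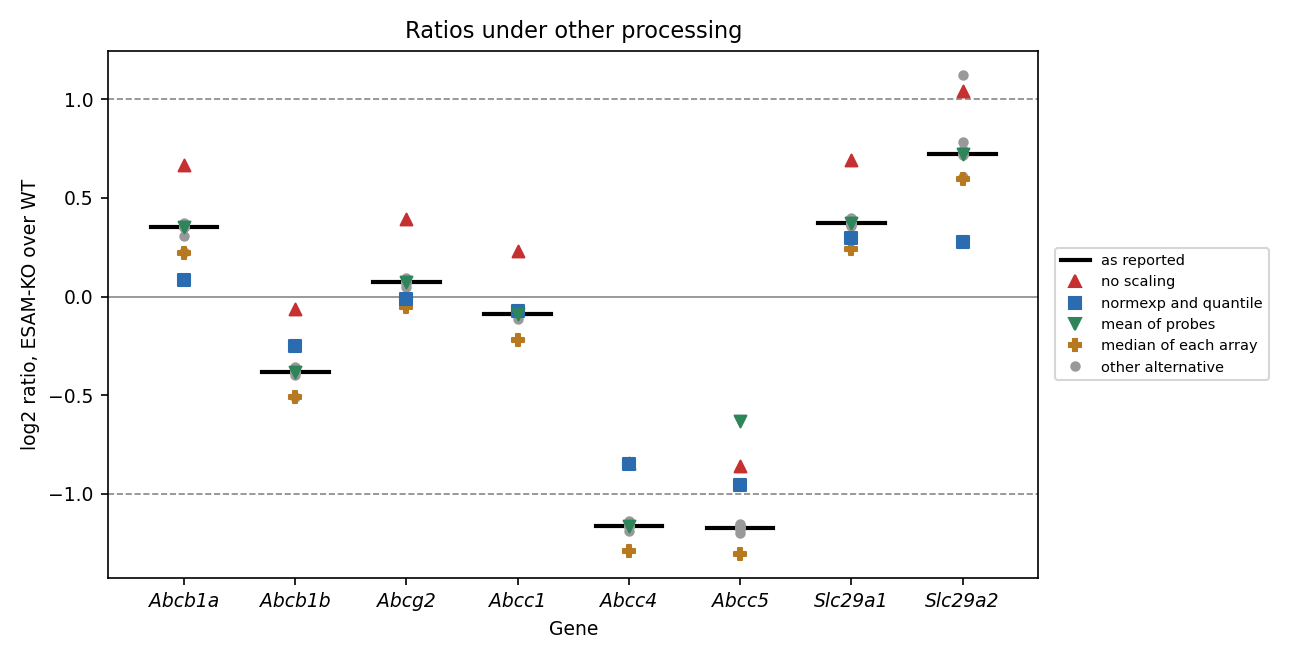
Log2 ratio of ESAM-KO over WT of each of the 8 genes as reported (black line) and with other scalings, other filters or other summaries of probes (symbols), with dashed lines at a 2-fold difference. Leaving out the scaling (red triangles) moved all genes upward, Abcc4 to -0.84 (hidden behind the blue square for normexp) and Slc29a2 to 1.04, and taking the mean of its probes (green) moved Abcc5 to -0.63.

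Related genes were taken as 5 whole lists, and 4 of the 36 with a ratio, or 11.1%, were past 2-fold, beside 15.4% of all genes. The 12 other exporters of drugs and organic anions had 7 members with a ratio, of which 2 were past 2-fold, both higher, and their median log2 ratio was 0.14. That sign rests on the bounds, as the genes above background on both arrays had a median of -0.12 and 1 of them was past 2-fold. Abcc3, an exporter of bile acids and glucuronides, read 12.3 in WT, not well above background, and 56.7 in ESAM-KO, and was at least 3.62-fold higher. Abca2, a lipid transporter of endosomes and lysosomes that is linked to drug resistance, read 148.5 and 397.9 at its brighter probe, a log2 ratio of 1.1, but 47.1 and 59.5 at the other, a log2 ratio of 0.02, so that the mean of its probes, 0.56, was within 2-fold. Abcb4, the phospholipid exporter next to Abcb1b, read 2640 and 2367, with a log2 ratio of -0.48. The bile salt pump Abcb11 and the pumps Abcb5, Abcc2 and Abcc12 were too dim on both arrays to be measured.

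The 11 intracellular ABC transporters, which work in organelle membranes, had 9 members with a ratio, and 7 of these were below 0, with a median log2 ratio of -0.70. Over all 14136 genes with a ratio, 7059 were below 0. One of the 9 was lower by more than 2-fold, namely Tap1, which carries peptides into the endoplasmic reticulum. It read 93.6 in WT against 47.6 in ESAM-KO over 8 spots, or -1.29 on the log2 scale and -0.97 without scaling. Abcb6 and Abcb10, which serve heme handling, were within 2-fold. Abcb6, linked to porphyrin transport, read 1307 and 954.3, a log2 ratio of -0.77. Abcb10, a mitochondrial protein needed for heme synthesis, read 498.1 and 381.5, a log2 ratio of -0.70. The median of this list moved to -0.38 without scaling.

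The 7 other nucleoside and nucleobase carriers had 6 members with a ratio and 0 past 2-fold, with a median of 0.07. Slc43a3, a nucleobase carrier, read 4187 and 3768, a log2 ratio of -0.47, and the concentrative transporters Slc28a1 and Slc28a2 were at 0.52 and -0.36. Slc29a3, the lysosomal relative of Slc29a1, had 2 probes that differed, at 0.12 for the brighter and 2.28 for the dimmer. Among 10 transcription factors known to control pump genes, 1 of 9 with a ratio was past 2-fold. That was Nr1i3, the constitutive androstane receptor, whose brighter probe read 50.8 and 24.9, a log2 ratio of -1.35, and whose dimmer probe read 32.9 and 34.0, a log2 ratio of -0.27, with a mean of -0.81. The pregnane receptor Nr1i2 was too dim on both arrays, and Nfe2l2, Hif1a and Ybx1 had log2 ratios of 0.01, -0.05 and 0.09. The others lay farther from 0, with Epas1 at 0.30, Foxo3 at -0.39, and Rxra and Ahr at bounds of 0.70 and 0.31. Foxo1 was at 0.53 at its brighter probe and at -1.14 at the dimmer. The 5 scaffold proteins that anchor pumps at the membrane lay between -0.07 and 0.45, and 0 of them were past 2-fold.

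**Figure D5:**
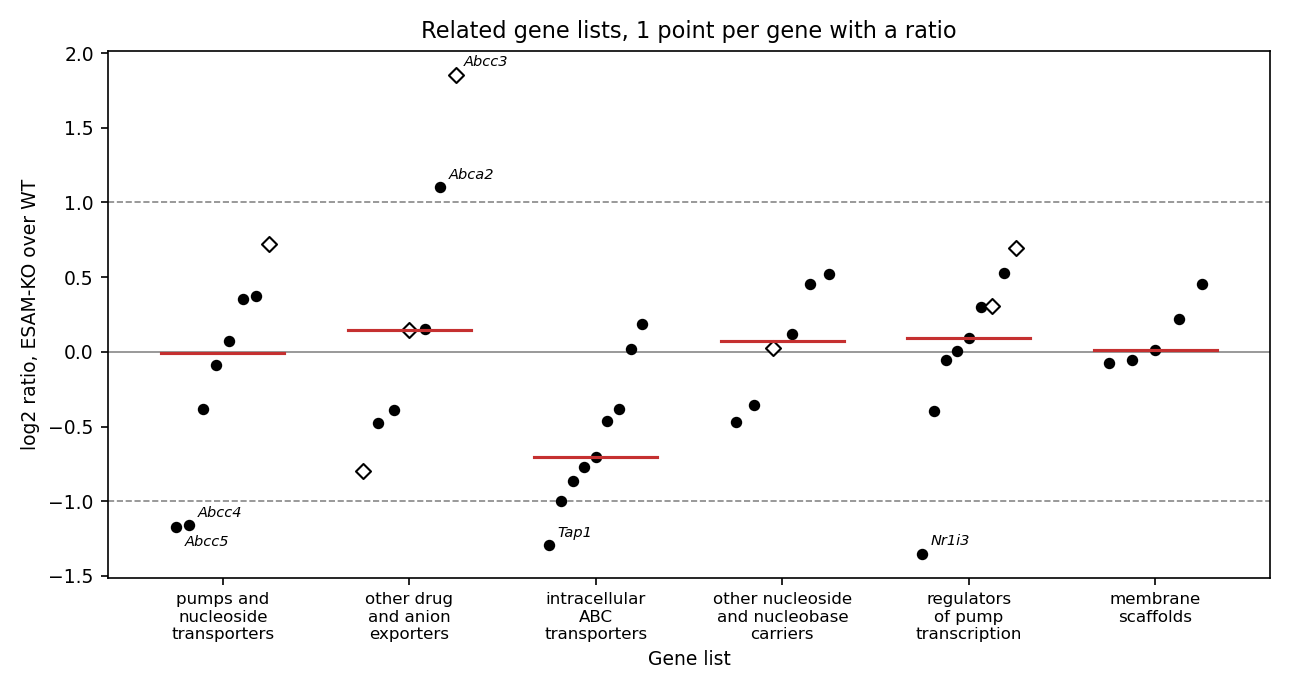
Log2 ratio of ESAM-KO over WT for the 8 genes and for the members of the 5 related lists that had a ratio, with 1 point per gene at its brightest probe, open diamonds for bounds and red lines for the median of each list. Genes beyond the dashed lines of a 2-fold difference are named, and the intracellular ABC transporters have the lowest median of these lists, -0.70.

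Markers of other blood and vessel cells were read on the same arrays. All 7 neutrophil markers (Elane, Mpo, Camp, Ltf, S100a8, S100a9 and Ngp) were more than 2-fold lower in ESAM-KO, with log2 ratios between -4.20 and -2.53, and their summed signal was 242 times the 75th percentile of the array in WT and 35.2 times in ESAM-KO. The summed signal of the erythroid markers was 71.8 and 69.7 on the same scale, that of the stem cell markers 4.80 and 3.28, of the endothelial markers 12.1 and 10.7, and of the macrophage markers 33.4 and 29.6. It was 7.60 and 7.68 for megakaryocyte markers, 0.461 and 0.268 for mast cell and basophil markers, and 11.5 and 11.2 for lymphoid markers. These sums follow their brightest genes, Kdr for the endothelial, Csf1r for the macrophage and Nkg7 for the lymphoid markers, and single markers within them differed more. Although the erythroid sums were close, 5 of the 7 erythroid markers had log2 ratios below 0 after scaling. Their list had a median of -0.32, which was -0.0020 without scaling. The 2 above 0 were Slamf1, at 0.05, and Tfrc, at 0.89, which read 2374 in WT and 5466 in ESAM-KO at its brightest probe. The other Tfrc probes were at 0.87 and 0.23. Of the 6 endothelial markers with a ratio 3 were past 2-fold, with Pecam1 at -1.99, Vwf at 1.28 and Tek at 1.1 or more on the log2 scale. Of the 4 macrophage markers with a ratio 2 were, Vcam1 at -2.88 and C1qa at 1.19. Of the 6 lymphoid markers with a ratio 2 were, both lower, Vpreb1 at -2.45 and Ebf1 by at least 3.29-fold. Of the 6 megakaryocyte markers 2 were, Ppbp and Gp9, both lower and both bounds. Of the 6 stem cell markers with a ratio 2 were, both bounds, Hlf at least 7.58-fold higher and Ly6a at least 5.79-fold lower. The 2 mast cell and basophil markers with a ratio were as well, both bounds. Prss34 was at least 7.54-fold lower and Ms4a2 at least 2.61-fold higher. Among all genes with a ratio, 15.4% were past 2-fold. Of the 8 stem cell markers, 5 had a probe well above background in WT and 6 in ESAM-KO, where 1 of the 2 Mecom probes was so, and Procr had none on either array. Of the 7 endothelial markers, 4 were so in WT and 6 in ESAM-KO, beside 13193 and 13695 of all 20660 named genes. Cdh5 was so on neither array. The macrophage marker Mrc1, the mast cell and basophil markers Cpa3, Mcpt8 and Fcer1a and the T cell marker Cd3g were on neither as well, and 6 of the 7 macrophage markers could be named on the array. In the pooled RNA of a sort, fewer cells of a type and less RNA per cell cannot be told apart. The part of these cells in the lower signal of Abcc4 and Abcc5 was not tested.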

How the data were processed

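Pre CFU-E of WT and ESAM-KO mice were each measured on 1 single-colour Agilent SurePrint G3 mouse array with pooled RNA. The authors deposited the Feature Extraction 10.10.1.1 output (version per the submitters' processing notes), in which the processed intensity of each spot is background-subtracted and detrended but not scaled between arrays, and a series table of the same intensity, rounded. Both arrays shared a slide and a scan. Control spots and 254 outlier-flagged spots were left out, log2 intensities were set relative to the 75th percentile of all other spots of the array, and spots of a probe were averaged. A probe counted as above background if over 50% of its spots passed the software's flag. Where only one array passed, the ratio is a bound: the dim side is its own signal or, if higher, the lowest passing signal of that array, and bounds under 1-fold are not given. Accessions without versions were matched to RefSeq (GRCm38.p6, for names and promoter sequence), which named 48.9% of the probes. A gene was past 2-fold at an absolute log2 ratio over 1, the criterion of the study.

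The genes, the lists and the rule for naming genes (all 8, related genes past 2-fold and those of heme and iron handling, of which some are not reported here) were chosen with earlier results of these data known. Abcb4, Abcb5, Abcb11, Abcc2, Abcc12, Slc43a3, Slc28a1, Slc28a2, Slc29a3, Nr1i2, Nfe2l2, Hif1a and Ybx1 fall outside that rule and were named after their values were seen. The same holds for Rxra, Ahr, Epas1, Foxo1 and Foxo3. The alternatives were 5 other scalings, normexp on median spot signals (offset of 50), a mean over the probes of a gene, the series table, 2 filters on dim signal, keeping the outlier spots, a signal floor, and 3-fold and 4-fold criteria. Python 3.11.15, pandas 2.3.3, numpy 2.4.6, R 4.3.3 and limma 3.58.1 were used, and the counting was tested on simulated data. The number of arrays limits the precision.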

Additional observations from a re-analysis of the deposited data

How the results depend on the processing

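The number of the 8 genes past 2-fold, 2, was the same under the other scalings except none, the series table, outlier spots kept, the requirement of both arrays and the signal floor. It was 1 without scaling, where Slc29a2 alone was past the criterion at 1.04, 1 with the mean of probes, where Abcc5 was at -0.63, 0 with normexp and at 3-fold and 4-fold, and 3 without the detection filter. With normexp, which adds an offset to all signals, Abcc4 was at -0.85 and Abcc5 at -0.96. The median of the 8 genes, -0.0071, was 0.31 without scaling, as was that of all genes. Of the related genes 4 were past 2-fold, and 0 with normexp, 7 without the detection filter, 1 at 3-fold and 0 at 4-fold. The 2179 of all genes past 2-fold became 712 with normexp, 4108 without the filter, and 821 and 449 at 3-fold and 4-fold, and the lower ones made up 54.7%, against 28.8% without scaling, 66.8% by array medians and 67.3% by normexp. Over the alternatives, 86 of 95 ratios of the 8 genes stayed within their scanner error and 9 did not, and Abcc4 and Abcc5 were below 0 in all 12 that gave ratios. Much of this agreement, and of that in the count past 2-fold, was fixed in advance. For a gene with 1 probe above background on both arrays, the filters, the signal floor and the mean of probes leave the ratio unchanged. Keeping the outlier spots left all 8 genes as they were, and the series table holds the same intensity, rounded. The alternatives able to move Abcc4 were thus the scalings and normexp. For the related lists and markers, 182 of 225 counts and medians stayed close and 43 moved. Signal near background limits Abcb1a, Abcb1b and Slc29a2. No paired analysis was possible because the comparison has a single array on each side.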
